A study of Mus musculus with 6 samples.

Results

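Autophagy machinery genes encode the proteins that start, build and load the autophagosome, and their transcripts were measured at postnatal day 0 in the telencephalon of 3 mice with a Tsc1 conditional knockout (TSC1) and of 3 control littermates (WT). The set was written as 35 gene symbols and was matched by symbol to the gene tables, each of which holds 22651 genes. Of the 35, 34 were found in all 6 tables, and Atg2a was not analysed here. The TSC1 mice were of the genotype TSC1 flox/flox;Emx1-cre/+, in which Cre recombinase expressed from the Emx1 locus removes part of Tsc1 from the embryonic dorsal cortex onwards. The WT mice had the genotype TSC1 flox/flox;Emx1 +/+, so both groups carried the floxed Tsc1 alleles and only the TSC1 mice carried Cre. The sequenced tissue also held cells outside the Emx1 lineage, such as striatal neurons and the cells of blood vessels and choroid plexus.

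In autophagy, a double membrane grows around cytoplasm, closes, and fuses with the lysosome, where the contents are degraded. The kinase complex mTORC1, which the TSC1 protein restrains, blocks the first step by phosphorylating ULK1 and ATG13, and it also keeps the transcription factors TFEB and TFE3 out of the nucleus. These controls act on proteins, so the level of a transcript is not a measure of autophagic activity. In the forebrain, loss of core autophagy genes in neurons is known to lead to protein aggregates and neurodegeneration.

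The ATG8 proteins, of the LC3 and GABARAP subfamilies, are the tags that autophagy puts on the growing membrane. ATG4 proteases cut each ATG8 protein after a glycine near its end, and that glycine is then joined to a lipid. The ends of the 5 ATG8 coding sequences in the GENCODE annotation of GRCm38 are shown because the tested transcripts encode this site. They are written 5′ to 3′ on the plus strand through the stop codon, and capitals mark the glycine codon that ATG4 exposes.
Map1lc3a, chr2:155277605-155277637: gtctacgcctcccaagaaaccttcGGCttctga
Map1lc3b, chr8:121596726-121596770: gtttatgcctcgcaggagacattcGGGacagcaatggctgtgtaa
Gabarap, chr11:69994492-69994524: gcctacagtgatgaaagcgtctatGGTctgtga
Gabarapl1, chr6:129541135-129541167: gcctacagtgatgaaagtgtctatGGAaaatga
Gabarapl2, chr8:111952373-111952405: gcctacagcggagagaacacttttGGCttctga
Map1lc3b encodes 5 residues after the glycine, and each of the other ATG8 genes encodes 1. Cargo receptors hold on to these tags through a short stretch called the LC3-interacting region. In Sqstm1, which encodes the receptor p62, it lies at chr11:50202526-50202570 on the minus strand, where capitals mark the codons of its core.
Sqstm1: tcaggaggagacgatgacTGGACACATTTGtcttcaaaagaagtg

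Total expected counts, which are RSEM's estimates of the reads from each gene before normalization, were between 14119365 and 17772865 per mouse. The targeted gene Tsc1 had 50.2, 32.0 and 28.4 TPM (a gene's share of all transcripts after correction for length, scaled by RSEM) in the WT mice and 27.1, 21.7 and 22.4 TPM in the TSC1 mice. Every TSC1 mouse was below every WT mouse, with a log2 fold change of −0.66 (SE 0.175) and an edgeR adjusted p of 0.10. Without WT replicate 1, the highest mouse, it was −0.40. TSC1 replicate 3 stood apart from the other TSC1 mice on the first principal component of all genes, at −3.95 against 26.5 and 30.3, where the WT mice lay between −26.3 and −7.43. The cortical neuron markers Tbr1 and Neurod6 were present in all mice. Of all genes tested, 22.7% had groups that did not overlap. None of the 5 choroid plexus markers overlapped between groups, with a summed level of 1163 to 2452 TPM in WT and 29.0 to 858 TPM in TSC1 mice. Of 9 striatal markers, 8 did not overlap, with summed levels of 320.3 to 445 TPM in WT and 97.7 to 248 TPM in TSC1 mice. All 6 markers of endothelial cells and pericytes had estimates below 0, of which 2 did not overlap, with summed levels of 248 to 325 TPM in WT and 216 to 256 TPM in TSC1 mice. Over all marker lists only Gfap, an astrocyte gene, was called higher (log2 fold change 1.09, edgeR adjusted p = 0.00683) and only Dlx1, a gene of subpallial neurons, was called lower (−0.68, edgeR adjusted p = 0.0183). The 5 astrocyte markers did not move together. Beside Gfap, Aqp4 (0.27) had an estimate above 0, while Aldh1l1 (−0.08), Slc1a3 (−0.31) and Gja1 (−0.69) had estimates below 0. Summed erythroid markers were 1695 to 5567 TPM in WT and 1292 to 1783 TPM in TSC1 mice, and no marker of any list was at 0 in all mice. The part of these differences in the values below was not tested, and in bulk tissue fewer cells of a type cannot be told apart from less RNA per cell.

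No autophagy machinery gene differed between TSC1 and WT mice at an adjusted p below 0.05. All 34 passed the filter on low counts and were tested by edgeR's quasi-likelihood test among 13969 genes, of which 1.52% were called. The smallest adjusted p of the 34 was 0.164, for Calcoco1. At an unadjusted p below 0.05 there were 3 genes of the 34 (8.82%), namely Ulk2, Optn and Calcoco1, where all genes tested gave 18.0%. DESeq2 also called 0 of the 34, where it called 3.56% of its genes, and had 6 at an unadjusted p below 0.05 (17.6%), where it had 12.1% of its genes. limma on log2(TPM + 1) called 0, where it called 1.93% of its genes, and had 5 at that unadjusted p (14.7%), where it had 18.2% of its genes. The members' share at an unadjusted p below 0.05 was thus below that of all genes in edgeR and limma and above it in DESeq2. Without TSC1 replicate 3 the count of called members was 0, while 5.68% of all genes were called. It was also 0 without replicate 3 of both groups, where 3.10% of all genes were called, and 0 with a replicate block, where 3.94% were.

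The estimated fold changes of the 34 genes were small. They ran from −0.16 for Gabarapl2 to 0.39 for Atg4c on the log2 scale, with a median of 0.06 beside a median of −0.00 over all genes tested. With upper-quartile normalization these medians were 0.03 and −0.03, and without TSC1 replicate 3 the members' median was 0.10. Of the 34 estimates, 25 were above 0 (73.5%), where 49.3% of all genes had an estimate above 0. With upper-quartile normalization 21 of 34 were above 0, beside 6015 of the 13969 genes tested. The 95% interval of the fold change lay within 1.5-fold either way for 30 of the 34 genes, a condition that 69.3% of all genes met. The exceptions were Atg2b, Atg4a, Atg4c and Atg10, whose intervals reached past a 1.5-fold higher level. For comparison, the smallest fold change among the called genes of the whole table was 0.30 on the log2 scale. The CPM (counts scaled to library size, here after TMM normalization) of 6 genes did not overlap between groups (17.6%), where 22.7% of all genes tested did not overlap, and these 6 are described with their groups.

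**Figure D1:**
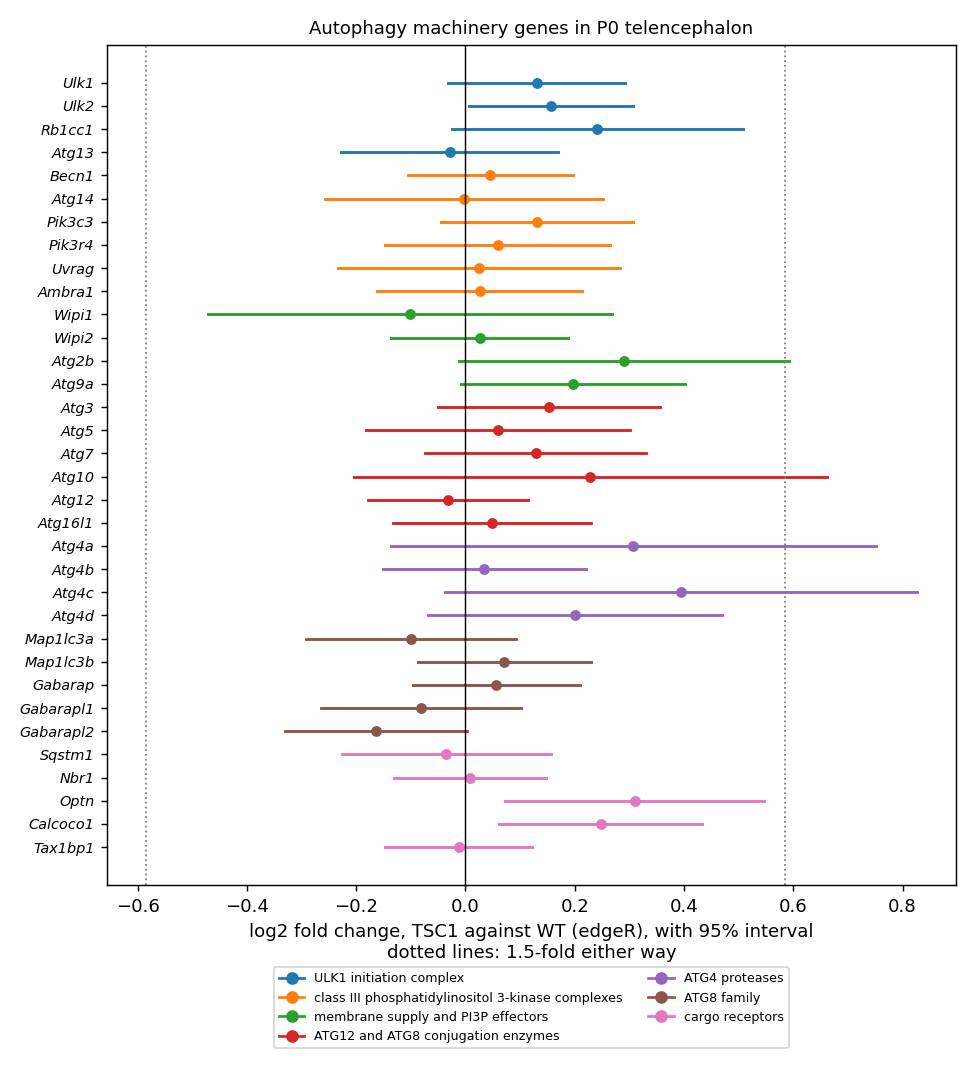
Log2 fold change of each of the 34 autophagy machinery genes in TSC1 against WT mice from edgeR (horizontal axis, 3 mice per group), with points for the estimates, bars for the 95% intervals and colors for the roles. Estimates lie between −0.16 and 0.39, 25 are above 0, and 30 of 34 intervals stay inside the dotted lines at 1.5-fold either way.

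The ULK1 complex, which receives the mTORC1 signal, was represented by 4 genes, and 3 of their 4 estimates were above 0. Ulk2, a kinase that shares the role of ULK1 in initiation, had 183, 161 and 162 TPM in the WT mice and 186, 199.5 and 187 TPM in the TSC1 mice. The groups did not overlap, but WT replicate 1 lay just under the lowest TSC1 mouse. The log2 fold change of Ulk2 was 0.16 (SE 0.0669, unadjusted p = 0.0431, edgeR adjusted p = 0.261). Ulk1, the kinase that mTORC1 phosphorylates, was at 83.2 ± 3.96 TPM in WT and 92.7 ± 5.97 TPM in TSC1 mice (mean ± SD, n = 3), and the groups overlapped. Rb1cc1, the scaffold of the complex also called FIP200, had a log2 fold change of 0.24 (SE 0.118) and Atg13, its regulatory partner, one of −0.03 (SE 0.0879). Ulk2 had the highest level of the complex in every mouse, and its range lay above that of Ulk1 in both groups.

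The class III phosphatidylinositol 3-kinase makes the lipid PI3P on the new membrane. It consists of the catalytic subunit VPS34 (Pik3c3), its partner VPS15 (Pik3r4) and Beclin 1 (Becn1), joined by either ATG14 or UVRAG, and AMBRA1 binds Beclin 1. Pik3c3 had 37.2, 34.8 and 32.1 TPM in WT and 40.2, 38.4 and 37.5 TPM in TSC1 mice. The lowest TSC1 mouse lay just above the highest WT mouse, with a log2 fold change of 0.13 (SE 0.078, edgeR adjusted p = 0.419). The other 5 genes overlapped between groups and had estimates between −0.00 (Atg14) and 0.06 (Pik3r4). Becn1, at 96.0 ± 5.55 TPM in WT and 101 ± 1.47 TPM in TSC1 mice, was the most abundant gene of the complex. The gene span of Becn1 overlaps that of Cntd1, and the library kit did not mark strand, so strand could not separate reads from any shared exon. Whether exons are shared was not examined, and no member had a fractional expected count in any mouse. The spans of Atg2b and Gskip, Atg9a and Ankzf1, Atg4b and Thap4, and Atg4d and Kri1 overlap as well.

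Of the genes that supply membrane to the autophagosome or read PI3P, 4 were tested and 3 had estimates above 0. ATG9A is the membrane protein of the vesicles that seed the autophagosome, and Atg9a was at 46.5 ± 3.45 TPM in WT and 54.3 ± 6.45 TPM in TSC1 mice with a log2 fold change of 0.20 (SE 0.091). Atg2b, which encodes a lipid transfer protein, had a log2 fold change of 0.29 (SE 0.134), and its 3 TSC1 values spread from 15.0 to 19.9 TPM. Both genes had overlapping groups. Wipi1 and Wipi2, which encode PI3P-binding proteins, had estimates of −0.10 and 0.03. Wipi2 was at a higher level than Wipi1 in all 6 mice, with 61.7 ± 4.37 against 15.4 ± 2.89 TPM in WT.

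The conjugation enzymes attach ATG12 to ATG5 and the ATG8 proteins to lipid. ATG7 activates both tags, ATG10 and ATG3 pass them on, and ATG16L1 places the ATG12–ATG5 pair on the membrane. Atg7 had 22.0, 20.2 and 18.1 TPM in WT and 23.4, 22.4 and 21.4 TPM in TSC1 mice by the authors' TPM values. On that scale WT replicate 1 lay between TSC1 replicates 2 and 3, whereas on CPM after TMM normalization, the scale on which overlap was counted, the groups did not overlap. Its log2 fold change was 0.13 (SE 0.0896, edgeR adjusted p = 0.487). The other estimates ran from −0.03 for Atg12 to 0.23 for Atg10, and none had an unadjusted p below 0.05. Atg12, at 137 TPM in both groups (SD 6.89 in WT and 6.16 in TSC1), had the highest level of the 6 and Atg10, at 6.54 ± 1.15 and 7.87 ± 0.451 TPM, the lowest. Atg10 had the smallest count of any member, 48 in 1 mouse, which limits the precision of its estimate.

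The 4 ATG4 proteases, which cut the ATG8 proteins before conjugation and also release them from lipid, all had estimates above 0. Their log2 fold changes were 0.31 (SE 0.197) for Atg4a, 0.03 (SE 0.0823) for Atg4b, 0.39 (SE 0.192) for Atg4c and 0.20 (SE 0.119) for Atg4d. All 4 intervals included 0 and the groups overlapped for each gene. Atg4b, the protease with the broadest activity on ATG8 proteins, had the smallest estimate and the highest level, 57.3 ± 2.15 TPM in WT and 59.9 ± 3.43 TPM in TSC1 mice. Atg4c varied most within groups, with 19.8, 12.8 and 14.3 TPM in WT and 24.4, 22.5 and 15.7 TPM in TSC1 mice.

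The 5 ATG8 genes had the largest summed level of the 7 role groups and made up 46.2% to 48.0% of the summed TPM of all members in WT and 44.7% to 46.7% in TSC1 mice. Their summed level was 1619 ± 20.3 TPM in WT and 1627 ± 43.8 TPM in TSC1 mice (mean ± SD, n = 3), and the groups overlapped. Map1lc3b, which encodes the LC3 protein used as the standard marker of autophagosomes, had 416, 414 and 429 TPM in WT and 446, 482 and 424 TPM in TSC1 mice. TSC1 replicate 3 lay within the WT range, and the log2 fold change was 0.07 (SE 0.0701, edgeR adjusted p = 0.633). The gene span of Map1lc3b overlaps those of Gm20388 and Zcchc14 in the annotation. Shared exons were not examined, so its reads may not all be its own. Map1lc3a had 288, 291 and 287 TPM in WT and 248, 289.9 and 289 TPM in TSC1 mice. Its low value came from TSC1 replicate 1 alone, and the log2 fold change was −0.10 (SE 0.0851, edgeR adjusted p = 0.578).

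Among the GABARAP genes, Gabarapl2 was the only ATG8 gene whose groups did not overlap. It had 267, 263 and 267 TPM in WT and 230.2, 256 and 243 TPM in TSC1 mice. All 3 TSC1 mice lay below the WT mice, which were within a few TPM of each other, and the log2 fold change was −0.16 (SE 0.0741, edgeR adjusted p = 0.286). Gabarap had 342, 316 and 339.6 TPM in WT and 376, 357 and 331 TPM in TSC1 mice, with a log2 fold change of 0.06 (SE 0.0679, edgeR adjusted p = 0.698). Gabarapl1 had 295, 325 and 320.3 TPM in WT and 293, 292 and 324 TPM in TSC1 mice, with a log2 fold change of −0.08 (SE 0.0811, edgeR adjusted p = 0.638). The groups of both genes overlapped. In WT the order of the mean levels was Map1lc3b, Gabarap, Gabarapl1, Map1lc3a and Gabarapl2. The ranges of Gabarap and Gabarapl1 overlapped in WT but not in the TSC1 mice, where those of Map1lc3a and Gabarapl2 overlapped instead. The ratio of summed GABARAP to summed LC3 levels was 1.28 to 1.29 in WT and 1.17 to 1.29 in TSC1 mice, with the low value in TSC1 replicate 2.

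**Figure D2:**
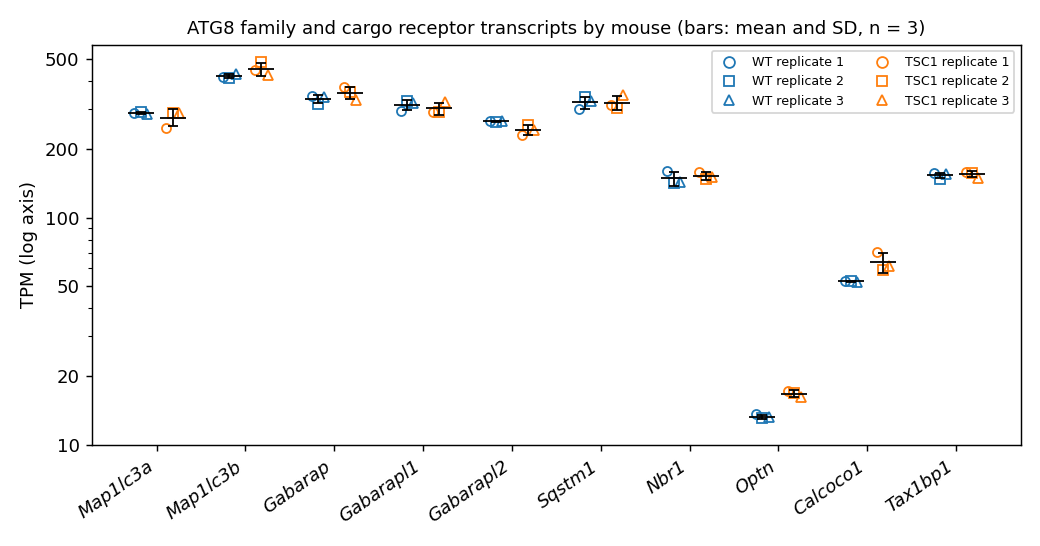
TPM (log axis) of the 5 ATG8 genes and the 5 cargo receptor genes in each of 3 WT and 3 TSC1 mice, with horizontal lines for the group means and bars for the SD. The groups of Gabarapl2, Optn and Calcoco1 do not overlap, while Sqstm1, between 300.3 and 346 TPM, mixes WT and TSC1 mice.

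The cargo receptors bring material to the ATG8 proteins, and their summed level was 690 ± 5.27 TPM in WT and 709 ± 21.9 TPM in TSC1 mice. Sqstm1 encodes p62, which collects ubiquitinated proteins and is itself degraded by autophagy, so that its protein builds up when autophagy is blocked. Its transcript was at 300.3, 339 and 325 TPM in WT and 313, 303 and 346 TPM in TSC1 mice. WT and TSC1 mice were mixed along this range, and the log2 fold change of −0.03 (SE 0.0847, edgeR adjusted p = 0.864) had a 95% interval from −0.23 to 0.16. Sqstm1 overlaps the gene Mrnip. Nbr1, a receptor related to p62, had 161, 142 and 144 TPM in WT and 159.6, 148 and 151 TPM in TSC1 mice, with a log2 fold change of 0.01 (SE 0.0616). Tax1bp1, another ubiquitin-binding receptor, had 157, 148 and 155 TPM in WT and 159, 157 and 149.9 TPM in TSC1 mice, with a log2 fold change of −0.01 (SE 0.0596). For both genes the mice of the groups were interleaved.

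Optn and Calcoco1 were the members with the smallest p-values. Optn, at chr2:5020642-5064051, encodes optineurin, a receptor for damaged mitochondria and bacteria. It had 13.6, 13.1 and 13.2 TPM in WT and 17.3, 17.0 and 16.2 TPM in TSC1 mice. The gap between the groups was wider than the range within either, and the log2 fold change was 0.31 (SE 0.105, unadjusted p = 0.0161, edgeR adjusted p = 0.170). Calcoco1, at chr15:102706777-102722178, encodes a receptor for the endoplasmic reticulum. It had 52.6, 52.5 and 52.2 TPM in WT and 70.8, 58.8 and 61.1 TPM in TSC1 mice, so the WT mice were nearly equal and TSC1 replicate 1 was the highest. The log2 fold change was 0.25 (SE 0.0824, unadjusted p = 0.0145, edgeR adjusted p = 0.164). Neither gene passed the threshold over all genes tested.

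Summed over the 34 members, the level was 3434 ± 40.4 TPM in WT and 3558 ± 34.96 TPM in TSC1 mice. The WT mice lay between 3401 and 3479 TPM and the TSC1 mice between 3520 and 3589 TPM, so the sums did not overlap. On the FPKM scale, which divides by the reads of a sample instead of fixing the sum of all genes, they did overlap, at 1249 to 1290 FPKM in WT and 1255 to 1277 FPKM in TSC1 mice. The members made up 0.340% to 0.348% of all TPM in WT and 0.352% to 0.359% in TSC1 mice. Within WT, replicate 1 had the highest normalized level of 17 of the 34 members (50%), as it had for 41.3% of all genes tested. Within TSC1, replicate 3 had the lowest level of 16 members (47.1%), beside 37.2% of all genes.

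The transcription factors that control autophagy genes were examined next. MiT/TFE factors (TFEB, TFE3 and MITF) and FOXO factors switch on autophagy and lysosome genes, ATF4 and CHOP (Ddit3) do so under amino acid or endoplasmic reticulum stress, and NRF2 (Nfe2l2) acts on Sqstm1. None of these 8 genes was called (1.52% of all genes), and 4 had an unadjusted p below 0.05 (50%, against 18.0% of all genes), namely Mitf, Foxo1, Atf4 and Ddit3. Foxo1 had 25.4, 19.7 and 19.7 TPM in WT and 15.2, 16.1 and 17.4 TPM in TSC1 mice. These groups did not overlap, and the log2 fold change was −0.43 (SE 0.111, edgeR adjusted p = 0.0918). DESeq2 called Foxo1 at an adjusted p of 0.0260, and edgeR without TSC1 replicate 3 called it at 0.0464. With any other mouse left out the adjusted p was 0.108 to 0.298. Mitf, at 2.21 ± 0.489 TPM in WT and 1.40 ± 0.325 TPM in TSC1 mice, had a log2 fold change of −0.64 (SE 0.243, edgeR adjusted p = 0.204). Tfeb, at a similarly low level of 2.79 ± 0.535 and 2.05 ± 0.264 TPM, had one of −0.48 (SE 0.251), and Tfe3, the most abundant MiT/TFE gene at 24.3 ± 0.370 and 26.7 ± 1.78 TPM, one of 0.10 (SE 0.0867). Foxo3 and Nfe2l2 had log2 fold changes of 0.11 (SE 0.137) and 0.55 (SE 0.428). Nfe2l2 ranged from 6.45 to 19.01 TPM within WT and from 8.13 to 24.1 TPM within TSC1 mice.

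Atf4 varied widely among the TSC1 mice. Its level was 217, 219 and 210.4 TPM in WT and 474, 311 and 204 TPM in TSC1 mice. TSC1 replicate 1 was far above WT, replicate 2 was above WT, and replicate 3 was below all WT mice. The log2 fold change was 0.57 (SE 0.229, edgeR adjusted p = 0.227), and without TSC1 replicate 3 it was 0.82 with an adjusted p of 0.0101. Without TSC1 replicate 1 it was 0.24 with an adjusted p of 0.569. Ddit3 had 24.8, 28.7 and 29.1 TPM in WT and 61.9, 35.7 and 33.1 TPM in TSC1 mice. All TSC1 mice lay above WT, again with replicate 1 highest, and the log2 fold change was 0.62 (SE 0.227, edgeR adjusted p = 0.194). Without TSC1 replicate 1 it was 0.30 with an adjusted p of 0.477.

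The autophagy genes known as targets of ATF4 or CHOP did not show a spread of that size among the TSC1 mice. This list of 12 members holds Sqstm1, Nbr1, Map1lc3b, Gabarap, Gabarapl2, Becn1, Atg3, Atg5, Atg7, Atg10, Atg12 and Atg16l1. The highest TSC1 mouse was between 1.03 and 1.22 times the lowest for each of the 12 (median 1.11). The same ratio was 2.33 for Atf4 and 1.87 for Ddit3. Over all 34 members this ratio was 1.03 to 1.56 (median 1.14), so a small spread was not particular to the 12. An effect of ATF4 or CHOP on these genes was not tested. None of the 12 was called by edgeR (1.52% of all genes were) or had an unadjusted p below 0.05 (18.0% of all genes had). Their median log2 fold change was 0.05, beside 0.09 for the other 22 members.

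**Figure D3:**
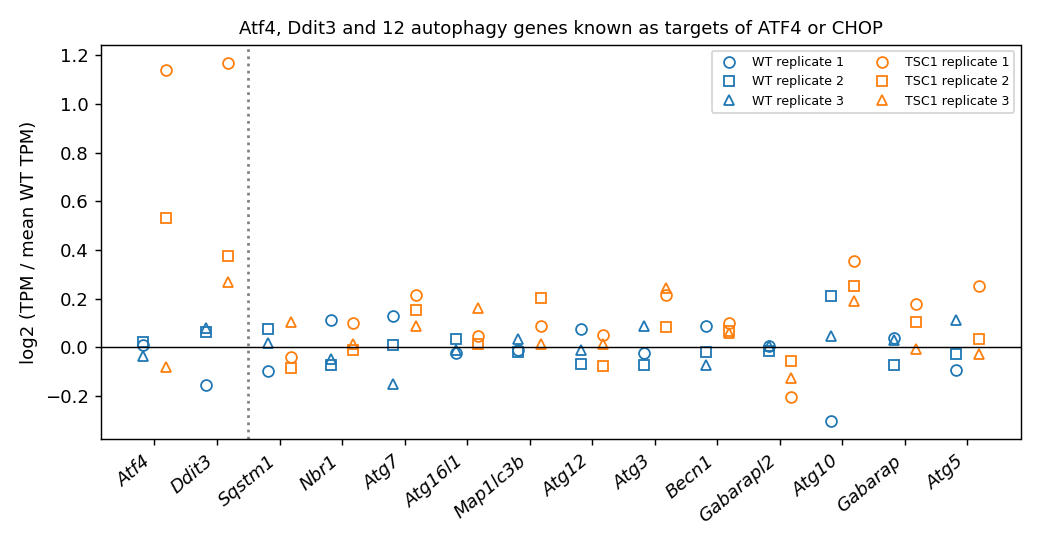
Log2 of TPM over the WT mean (vertical axis) for Atf4, Ddit3 and the 12 autophagy genes known as ATF4 or CHOP targets, with 1 symbol per mouse, WT in blue and TSC1 in orange. Atf4 is at 1.14 in TSC1 replicate 1 and at −0.08 in replicate 3, while each of the 12 genes keeps its highest TSC1 mouse within 1.22 times its lowest.

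Promoters of the members were searched for the sequences these factors bind, in RefSeq windows from 250 bases before to 50 bases after each start (GRCm38.p6), which covered 29 members with 33 promoters. The E-box CACGTG, read by MiT/TFE factors, was found in promoters of Atg3, Atg5, Atg7 and Atg14, and in 7.15% of 32851 promoters in all. For Atg3 and Atg14 the 50 bases after the start matched a GENCODE transcript of the gene, and for Atg5 and Atg7 they did not. The Atg14 E-box begins 1 base before the start, so most of it lies after the start. The Atg5 E-box, within chr10:44268265-44268338, lies just before the gene, which starts at 44268358 in GENCODE. The Atg7 E-box, within chr6:114670904-114671029, lies inside the gene, which starts at 114643097 in GENCODE. Its longer form TCACGTGA, which contains it, was found in Atg3 and in 0.974% of all promoters. The ATF4 element TGATGNAA, searched on both strands like the others, was in 0 of the 33 windows and in 3.97% of all. The antioxidant element TGACNNNGC, read by NRF2, was in 4 windows (Atg13, Map1lc3b, Tax1bp1 and Ulk2) and in 12.4% of all. The Atg3 promoter is shown because it was the only member promoter with a pair of E-boxes, at chr16:45158698-45158823 on the plus strand, with capitals on the copy 71 bases before the start.
Atg3: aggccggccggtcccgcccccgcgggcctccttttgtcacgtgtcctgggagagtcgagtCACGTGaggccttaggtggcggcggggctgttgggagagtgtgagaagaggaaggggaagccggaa
Atg3, the enzyme that passes ATG8 proteins to lipid, was at 57.7, 55.7 and 62.3 TPM in WT and 68.0, 62.1 and 69.4 TPM in TSC1 mice. The groups overlapped only between WT replicate 3 and TSC1 replicate 2, and the log2 fold change was 0.15 (SE 0.0900, edgeR adjusted p = 0.412).

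A wider list of 38 other autophagy genes was compared for reference, covering further receptors, membrane proteins, fusion factors and regulators. Of these, 37 were in the tables, and 36 were tested, since Calcoco2 had at most 1 count per mouse and was filtered out. edgeR called 2 of the 36, both at a higher level in TSC1 mice, where 0.859% of all genes were called higher and 0.659% lower. Both belong to a small family of proteins that bind ATG8 proteins, TP53INP1 being a p53 target and TP53INP2 a nuclear protein that moves to autophagosomes. Trp53inp1, at chr4:11156431-11174379, had 40.2, 37.2 and 38.6 TPM in WT and 53.0, 50.3 and 51.6 TPM in TSC1 mice. It rose by 0.39 on the log2 scale (SE 0.0650, edgeR adjusted p = 0.0297) with little spread in either group. Trp53inp2, at chr2:155381059-155389850, had 129, 114 and 104 TPM in WT and 182, 197 and 156 TPM in TSC1 mice. It rose by 0.60 on the log2 scale (SE 0.0941, edgeR adjusted p = 0.0249), and its groups did not overlap. Leaving out WT replicate 2, WT replicate 3, TSC1 replicate 1 or TSC1 replicate 2 left the estimates at 0.37 to 0.41 and 0.51 to 0.60, but both missed the threshold, with adjusted p of 0.111 to 0.157 for Trp53inp1 and 0.0982 to 0.145 for Trp53inp2. In these fits of 5 mice only 29 to 37 genes of the whole table were called.

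At an unadjusted p below 0.05 there were 7 of the 36 wider genes (19.4%, against 18.0% of all genes), all with estimates above 0. Beside the called genes these were Prkaa2, Ykt6, Rubcn, Fyco1 and Plekhm1. Prkaa2, the alpha 2 catalytic subunit of the energy-sensing kinase AMPK, which activates ULK1, had 33.9, 30.6 and 29.6 TPM in WT and 42.9, 43.2 and 37.2 TPM in TSC1 mice. These groups did not overlap, and its log2 fold change of 0.36 (SE 0.0759, edgeR adjusted p = 0.0539) lay close to the threshold. DESeq2 called Prkaa2 at an adjusted p of 0.00415, and edgeR called it without WT replicate 1 (0.0394) or without TSC1 replicate 3 (0.0150). With any other mouse left out its adjusted p was 0.186 to 0.221. Ykt6, a SNARE protein of autophagosome fusion, had 313, 328 and 322 TPM in WT and 386, 390.1 and 411 TPM in TSC1 mice. Its groups were well separated, with a log2 fold change of 0.27 (SE 0.0666, edgeR adjusted p = 0.0789). DESeq2 called Ykt6 at an adjusted p of 0.0241, limma on log2(TPM + 1) at 0.0255 and edgeR with the replicate block at 0.0391. With any mouse left out, its edgeR adjusted p was 0.0927 to 0.263, and with upper-quartile normalization it was 0.124. Rubcn, an inhibitor of the UVRAG complex that the tables list as 1700021K19Rik, had a log2 fold change of 0.27 (SE 0.0708, edgeR adjusted p = 0.0988), with an adjusted p of 0.0463 without WT replicate 1 and of 0.0725 to 0.332 with any other mouse left out. Fyco1 and Plekhm1, which tie autophagosomes to transport and to fusion with the lysosome, had estimates of 0.32 (SE 0.0902) and 0.33 (SE 0.145). Of the 36 genes, 26 had estimates above 0 and 9 had groups that did not overlap (25.0%, against 22.7% of all genes), with a median log2 fold change of 0.10.

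**Figure D4:**
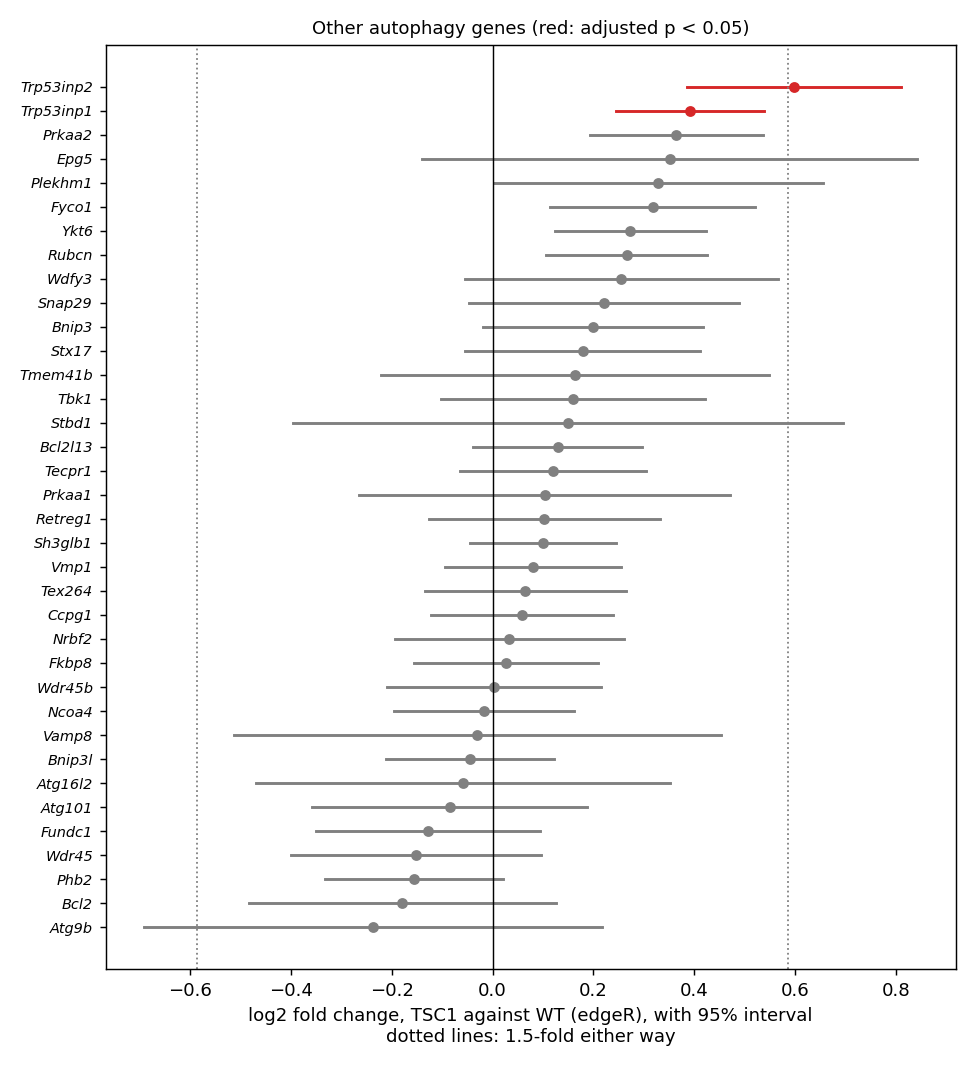
Log2 fold change in TSC1 against WT mice from edgeR (horizontal axis, 3 mice per group) for the 36 other autophagy genes tested, with points for estimates, bars for 95% intervals and red for an adjusted p below 0.05. Trp53inp2 at 0.60 and Trp53inp1 at 0.39 are the called genes, and Prkaa2 at 0.36 comes next in the order.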

How the data were processed

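mRNA-sequencing tables of telencephalon from 6 mice were used, with groups taken from the sample titles. Libraries were made by the authors with a kit that does not mark strand, and trimmed reads were mapped by MapSplice2 (mm10) before RSEM 1.2.12 estimated gene levels. The deposited expected counts are not normalized, and the deposited TPM and FPKM values are RSEM's length-corrected levels. Expected counts were rounded and fitted with edgeR 4.0.16 (TMM, filterByExpr, quasi-likelihood test) in R 4.3.3, and a gene was called at a Benjamini-Hochberg adjusted p below 0.05 over all genes tested. The study's own test, which builds null distributions by permutation, was not used here. SE is the absolute log2 fold change over the root of F. DESeq2 1.42.0, limma 3.58.1, other normalizations and filters, effective-length offsets, leaving out each replicate in turn and a replicate block were alternatives. A fit without replicate 3 of both groups was added after seeing TSC1 replicate 3 apart. Groups were said to overlap or not on CPM after TMM.

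The members and gene lists were chosen with earlier results of these data known. All 34 members are accounted for, with values per mouse for those whose groups did not overlap, those with an unadjusted p below 0.05, the ATG8 genes and the cargo receptors. Wider genes and regulators are named at an unadjusted p below 0.05, and the regulators in full. A depth of 3 counts corresponds to 0.169 to 0.212 CPM. Replicate libraries differed beyond sampling noise. On simulated data with 200 changed genes (absolute log2 fold change 1.5), edgeR recovered 96.5% with 3.02% false calls. The simulation used the same dispersion for every gene, and its changes were larger than any member's estimate (at most 0.39). It therefore does not tell how often changes of the members' size would be called. The p-values set the difference between groups against the spread between mice, which the tests moderate across genes. Positions are from GENCODE M21 on GRCm38, the assembly of mm10, counted from 1.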

Additional observations from a re-analysis of the deposited data

How the results depend on the processing

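In all 16 alternative settings 0 of the 34 members were called, and the median log2 fold change ran from 0.027 (upper quartile) to 0.10 (without replicate 3 of both groups). Of 544 member estimates under the alternatives, 513 kept their direction and 31, in 12 genes with estimates near 0, did not; the cause was not tested. Upper-quartile normalization gave −0.0052 for Uvrag, −0.0048 for Ambra1, −0.0048 for Wipi2 and −0.0212 for Nbr1. With limma, Atg14 was at 0.0202 (pseudocount 1) and 0.0208 (pseudocount 0.1), and Tax1bp1 at 0.0160 and 0.0161. Without replicate 3 of both groups, chosen after seeing the data, Atg14 was at 0.0584, Wipi2 at −0.0100 and Tax1bp1 at 0.0310. With each replicate left out in turn, the estimates ran from −0.0887 to 0.0378 for Atg13, −0.0648 to 0.0992 for Atg14, −0.0708 to 0.0940 for Uvrag, −0.0330 to 0.0877 for Ambra1, −0.2243 to 0.0159 for Wipi1, −0.0125 to 0.0679 for Wipi2, −0.0102 to 0.1395 for Atg5, −0.0074 to 0.0787 for Atg16l1, −0.0134 to 0.0902 for Atg4b, −0.1043 to 0.0086 for Sqstm1, −0.0230 to 0.0448 for Nbr1 and −0.0326 to 0.0173 for Tax1bp1.

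Wider genes called were 4 with DESeq2, 4 with the replicate block and 0 to 4 with a replicate left out. Genes called over the whole table were 641 with DESeq2, 346 with no filter, 551 with the replicate block, 434 without replicate 3 of both groups, and 29 to 799 with a replicate left out. The lowest counts came without WT replicate 2 (29) or WT replicate 3 (35), and the highest without TSC1 replicate 3 (799). Samples sharing a replicate number deviated from their group means with correlations of 0.267, −0.133 and 0.318, and no source pairs them, so the block was kept as an alternative. Tsc1 was called with DESeq2 (adjusted p = 0.00321), with the replicate block (0.0217) and without replicate 3 of both groups (0.0382).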
